A study of Mus musculus with 51 samples.

Results

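The genes described here are 9 secreted modulators of Wnt signalling, taken by symbol from the deposited expression tables: the secreted frizzled-related proteins Sfrp5, Sfrp1, Sfrp2 and Sfrp4, the ligands Wnt4, Wnt5a and Wnt11, the matricellular protein Wisp2 (also called Ccn5) and the Wnt inhibitory factor Wif1. The tables list 14606 genes in at least 1 tissue, and 7 of the 9 were among the 12690 genes listed for white adipose tissue (WAT). Sfrp4 and Wnt4 were below the authors' filter on low values in WAT. The genes were chosen by their CPM (a gene's reads scaled to a fixed total of counted reads per library) in WAT after gastric bypass (RYGB) and after sham surgery, so their WAT values are a description and carry no test. On GRCm38, GENCODE places Sfrp5 at chr19:42197971-42202252 (minus strand), Sfrp1 at chr8:23411502-23449632 (plus strand), Sfrp2 at chr3:83766321-83774316 (plus strand) and Sfrp4 at chr13:19623104-19632994 (plus strand). It places Wnt4 at chr4:137277489-137299726 (plus strand), Wnt5a at chr14:28504750-28527448 (plus strand) and Wnt11 at chr7:98835112-98855195 (plus strand), and Wisp2 at chr2:163820861-163833146 (plus strand) and Wif1 at chr10:121033960-121100650 (plus strand). All 9 are protein-coding.

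The values come from RNA sequencing of 51 libraries from male C57Bl6 mice with diet-induced obesity, killed 9 weeks after RYGB, a Roux-en-Y bypass that joins a small stomach pouch to the jejunum, or after a sham operation. All mice received an elemental liquid diet after the operation and were then moved back to high-fat food, all were fasted overnight before they were killed, and sham mice were kept on limited food so that their weight matched. Surgery and the food limit of the sham mice therefore cannot be told apart. The groups were 4 RYGB and 5 sham libraries for subcutaneous WAT and 4 of each for gastrocnemius muscle. The gut gave 4 RYGB and 5 sham libraries from duodenum, the same numbers from jejunum, and 2 RYGB and 5 sham libraries from ileum, while liver gave 5 RYGB and 4 sham libraries. Gut libraries came from villi scraped off after cold EDTA. For the RYGB muscle libraries 1 label field names the sham operation, but both their titles and their surgery labels say RYGB, which was followed here. In WAT, RYGB 3 and 4 stood apart in lymphocyte markers (60.3 and 303.1 CPM in sum, at most 11.9 CPM in any other library), and in duodenum 4 libraries held over 1% pancreatic transcripts. Results that rest on these libraries are given with and without them.

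Wnt proteins are lipid-modified secreted ligands that bind frizzled receptors together with the co-receptors Lrp5 or Lrp6, which stabilises beta-catenin and turns on target genes through TCF and LEF factors. Wnt5a and Wnt11 mostly signal without beta-catenin, through planar polarity and calcium routes. Secreted frizzled-related proteins and Wif1 bind Wnt ligands outside the cell. In adipose tissue, beta-catenin signalling restrains the formation of new fat cells, and Sfrp5 is known as an adipocyte product that rises as fat cells enlarge and that can bind Wnt5a.

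Promoter sequence was at hand for 5 of the 9 genes, and 3 are shown: Sfrp5, whose WAT groups lay far apart, Wnt11, lower after RYGB with overlap through 1 library, and Sfrp2, whose groups overlapped widely. Each is the 250 bases before the RefSeq start on GRCm38.p6, written 5′ to 3′ on the gene's strand. Capitals mark matches on either strand to 4 motifs. The core of TCF and LEF sites was searched as CTTTGA. The TATA box was searched as TATAAA. The other motifs were the CCAAT box, searched by those letters, and the GC box, searched as GGGCGG. No letters are shared between matches of different motifs in these windows. The Sfrp5 window is chr19:42202253-42202502 on the minus strand, the Wnt11 window chr7:98834862-98835111 on the plus strand and the Sfrp2 window chr3:83766071-83766320 on the plus strand.
Sfrp5: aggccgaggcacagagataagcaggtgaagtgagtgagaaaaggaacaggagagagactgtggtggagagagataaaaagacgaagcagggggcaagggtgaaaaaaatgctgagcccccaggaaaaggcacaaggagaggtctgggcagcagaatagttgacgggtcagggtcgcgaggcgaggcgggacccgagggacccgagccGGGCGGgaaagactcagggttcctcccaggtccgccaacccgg
Wnt11: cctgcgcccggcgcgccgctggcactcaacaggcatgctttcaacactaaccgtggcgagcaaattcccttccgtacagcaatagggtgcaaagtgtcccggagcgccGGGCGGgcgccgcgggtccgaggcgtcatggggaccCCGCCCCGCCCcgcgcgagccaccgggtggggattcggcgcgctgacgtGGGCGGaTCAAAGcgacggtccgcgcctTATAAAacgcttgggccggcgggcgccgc
Sfrp2: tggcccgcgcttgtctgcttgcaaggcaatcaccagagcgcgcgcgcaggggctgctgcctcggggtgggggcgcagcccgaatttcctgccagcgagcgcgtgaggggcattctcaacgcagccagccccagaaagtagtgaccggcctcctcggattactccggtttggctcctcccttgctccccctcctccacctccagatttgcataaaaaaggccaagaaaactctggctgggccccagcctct
The Sfrp5 window held 1 GC box, beginning 43 bases before the start, and no TCF core. The Wnt11 window shown held 1 TCF core match on the minus strand 50 bases before the start, 1 TATA box 29 bases before it and 4 GC boxes, of which 2 overlap each other. RefSeq has a second Wnt11 start, whose window (chr7:98838595-98838844, plus strand) held none of the 4 motifs. The Sfrp2 window held none of them either. Among 32851 RefSeq promoter windows of the same length, 13.8% held the TCF core, 12.4% the TATA box, 33.8% the CCAAT box and 32.7% the GC box, and a match describes letters only.

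Sfrp5 and Wisp2 were among the WAT transcripts that RYGB mice nearly lacked. Sfrp5, the adipocyte-derived Wnt antagonist, measured 2.7, 5.3, 3.7 and 3.9 CPM in the RYGB libraries, against 356.4, 257.5, 322.8, 407.4 and 101 CPM in the sham libraries. Every RYGB library was far below every sham library, and sham 5 was the lowest of its group. The RYGB mean of 3.9 ± 1.07 CPM (SD, n = 4) was 1.35% of the sham mean of 289 ± 118 CPM (SD, n = 5), a difference of -5.77 ± 0.36 (SE) in log2(CPM + 1). In these bulk samples fewer cells of a type and less RNA per cell cannot be told apart.

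Wisp2, a CCN family protein secreted by adipose precursor cells that is known to act on beta-catenin signalling, measured 0.7, 0.6, 1.3 and 1.4 CPM in the RYGB libraries, against 245.7, 115.6, 294.9, 256 and 47.6 CPM in the sham libraries. The groups were again far apart, and sham 5 was again the lowest sham library. The RYGB mean of 1.0 ± 0.408 CPM was 0.521% of the sham mean of 192 ± 105 CPM, a difference of -6.35 ± 0.47 in log2(CPM + 1).

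**Figure D1:**
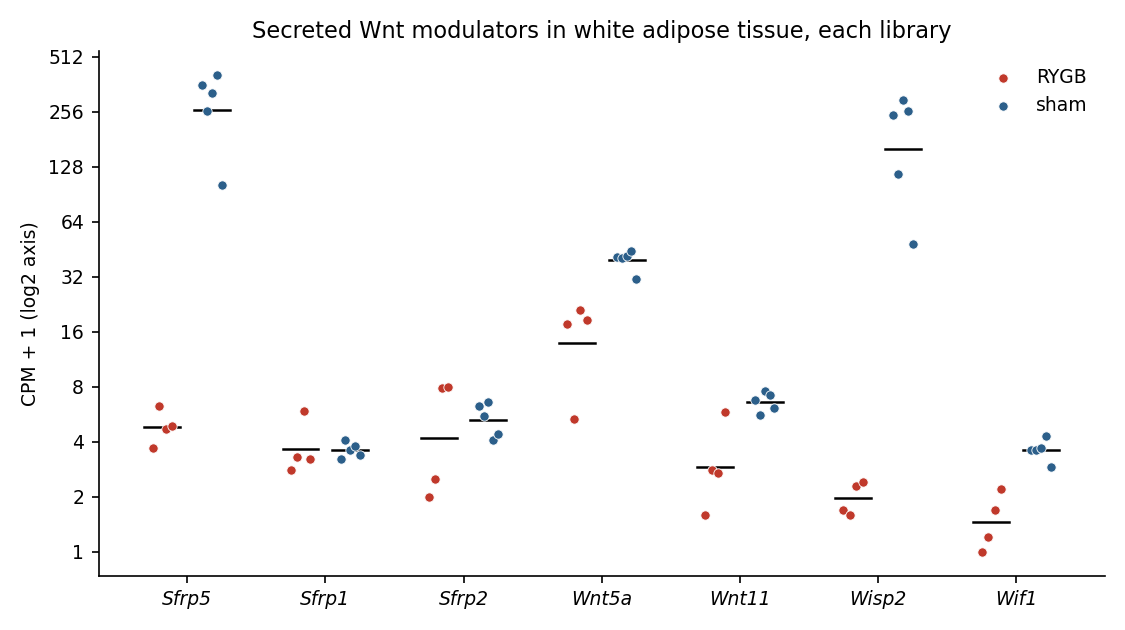
CPM plus 1 on a log2 axis for the 7 listed genes in WAT, with 1 point per library (4 RYGB left, 5 sham right of each pair) and a black line at the mean of the log values. Sfrp5 and Wisp2 show a wide gap between the groups, Wnt5a and Wif1 a narrower one, and Sfrp1, Sfrp2 and Wnt11 overlap.

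Sfrp1 and Sfrp2, the other listed secreted frizzled-related proteins, overlapped between the groups in WAT. Sfrp1 measured 1.8, 2.3, 4.9 and 2.2 CPM in RYGB libraries, against 2.2, 3.1, 2.6, 2.8 and 2.4 CPM in sham libraries, with a difference of 0.01 ± 0.24 in log2(CPM + 1). Sfrp2 measured 1, 1.5, 6.9 and 7 CPM in RYGB libraries, against 5.3, 4.5, 5.6, 3.1 and 3.4 CPM in sham libraries, with a difference of -0.33 ± 0.42. RYGB 1 and 2 were below all sham libraries for Sfrp2 and RYGB 3 and 4 above all of them. Without RYGB 3 and 4 the Sfrp2 difference was -1.24, past the threshold, and that of Sfrp1 was -0.25. Leaving out the libraries highest in Sfrp2 lowers its difference in itself.

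Of the ligands, Wnt5a was the most abundant in WAT per length and was lower after RYGB. It measured 16.6, 4.3, 20 and 17.6 CPM in RYGB libraries, against 39.9, 39.5, 40.5, 43.5 and 30.1 CPM in sham libraries. The groups did not overlap, and RYGB 2 was the lowest library of all. The RYGB mean was 14.6 ± 7.03 CPM and the sham mean 38.7 ± 5.06 CPM, a difference of -1.51 ± 0.35 in log2(CPM + 1). Wnt11 measured 0.6, 1.8, 1.7 and 4.8 CPM in RYGB libraries, against 5.8, 4.6, 6.6, 6.2 and 5.1 CPM in sham libraries. Only RYGB 4 reached the sham range, and the difference was -1.19 ± 0.32. Wif1, the secreted Wnt-binding inhibitor, measured 0, 0.2, 0.7 and 1.2 CPM in RYGB libraries, against 2.6, 2.6, 2.7, 3.3 and 1.9 CPM in sham libraries. Its groups did not overlap, at levels close to the authors' filter, and the difference was -1.30 ± 0.25.

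Of the 7 listed genes, 5 (Sfrp5, Wisp2, Wnt5a, Wnt11 and Wif1) passed an adjusted p of 0.05 toward lower values after RYGB and 0 toward higher ones, where 26.3% of all WAT genes passed toward lower and 14.3% toward higher values. For 4 of the 7, every RYGB library was below every sham library, as for 22.0% of all WAT genes. These counts follow from how the genes were picked. Wisp2, Wnt11 and Wif1 also reached the authors' filter through the sham libraries alone, which favours a lower value after RYGB. The median WAT gene differed by -0.16 in log2(CPM + 1), which median-of-ratios scaling moved to 0.00 (a shift of 0.17). That scaling also turned the share of lower values among all WAT calls to 49.2%, against 64.8% without it, and the same 5 of 7 count stood under it.

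Per kilobase of exon, the order of levels in sham WAT was Sfrp5 (152 ± 62.3 CPM per kb), Wisp2 (99.8 ± 54.7), Wnt5a (4.95 ± 0.646), Sfrp2 (2.03 ± 0.517), Wnt11 (1.37 ± 0.196), Wif1 (1.08 ± 0.205) and Sfrp1 (0.599 ± 0.0799). Sfrp5 and Wisp2 lay within each other's spread, as did Sfrp2 and Wnt11, and Wnt11 and Wif1. In RYGB WAT the same 7 genes lay between 0.216 and 2.05 CPM per kb. Sfrp5 (2.05 ± 0.564), Sfrp2 (1.90 ± 1.53) and Wnt5a (1.87 ± 0.899) did not differ beyond their spread there, and Wisp2 stood at 0.520 ± 0.212 CPM per kb.

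Some of the genes varied together within the groups. After each group's mean was taken off, Sfrp5 and Wisp2 correlated at r = 0.87 over 9 libraries, and at 0.43 without sham 5, below Wisp2 and Wnt11 (0.50), Wisp2 and Wif1 (0.47) and Sfrp5 and Wnt11 (0.46) over the same 8 libraries. Wnt11 and Wif1 correlated at 0.85 and Sfrp2 and Wif1 at 0.82, and without sham 5 these were 0.88 and 0.83. Of 10578 WAT genes with a mean of at least 5 CPM, those that followed Sfrp5 most closely in this measure were Nkd1 (0.92), Stau2 (0.92), Sorbs2 (0.92), Macrod2 (0.92) and Folh1 (0.91). Without sham 5, the values were 0.44 for Nkd1, 0.60 for Stau2, 0.70 for Sorbs2, 0.79 for Macrod2 and 0.72 for Folh1. The 9 libraries share a tissue and a table, and these correlations are descriptions.

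Cell type markers differed in WAT too, where 26.3% of all genes were lower and 14.3% higher, and their part in the values above was not tested. All 14 adipocyte markers were listed, summing to 44494 to 89035 CPM in RYGB libraries and 33035 to 40627 CPM in sham libraries, so the labelled tissue carries its defining transcripts. Of these, 5 rose and 2 fell. All 5 brown and beige adipocyte markers rose, with sums of 175.1 to 3539.2 CPM in RYGB libraries and 26.0 to 71.8 CPM in sham libraries. Of 15 listed stromal and fibroblast markers 5 fell and 0 rose, with sums of 1734.9 to 5918.3 CPM in RYGB libraries and 3073.7 to 4231.5 CPM in sham libraries. Of 7 listed macrophage markers 3 fell and 0 rose, with sums of 467.8 to 923.1 CPM in RYGB libraries and 475.0 to 769.8 CPM in sham libraries. Of 6 endothelial markers 1 fell, with sums of 740.9 to 1931.7 CPM in RYGB libraries and 1567.1 to 2142.3 CPM in sham libraries. Of 4 listed smooth muscle markers 2 fell, with sums of 261.9 to 718.5 CPM in RYGB libraries and 673.7 to 1653.8 CPM in sham libraries. The 4 listed lymphocyte markers summed to 5.2, 2.6, 60.3 and 303.1 CPM in the RYGB libraries and to 5.1 to 11.9 CPM in the sham libraries. Of the 4 listed hepatocyte markers 1 rose and 1 fell: Cyp2e1, which adipocytes also express, averaged 6375 CPM in RYGB and 637 CPM in sham libraries, and Alb averaged 61.1 CPM in RYGB and 137 CPM in sham libraries. None of the 5 epithelial and mammary duct markers was listed. Without RYGB 3 and 4, the libraries highest in lymphocyte markers and also in Sfrp2, 6 of the 7 genes passed toward lower values. The added gene was Sfrp2. That setting was chosen after the data were seen, and no share of all WAT genes is given for it.

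Most listed genes of the Wnt receptor list fell in the same tissue. Of 18 frizzled receptors, co-receptors and linked membrane proteins such as Lgr4, Kremen1 and Lrp4, 12 fell, 0 rose and 6 did not pass. Beside this, 26.3% of all WAT genes were lower and 14.3% higher. The median difference of the 18 was -0.66 in log2(CPM + 1), against -0.16 over all WAT genes. Of those that fell, Fzd2 reached the authors' filter through the sham libraries alone, which favours a lower value after RYGB. Fzd4, a frizzled for canonical Wnts and norrin, measured 96.8, 33, 189.3 and 52.2 CPM in RYGB libraries, against 640.3, 488.4, 559.5, 574.6 and 285 CPM in sham libraries. It fell by 2.69 ± 0.44 on the log2 scale (adjusted p = 0.00121), with no overlap. Fzd1, another receptor upstream of beta-catenin, averaged 27.3 ± 11.4 CPM in RYGB and 103 ± 9.94 CPM in sham libraries (-1.97 ± 0.25, adjusted p = 0.000374). Lgr4, the R-spondin receptor that raises frizzled levels at the membrane, averaged 56.4 ± 41.4 CPM in RYGB and 193 ± 49.4 CPM in sham libraries (-1.94 ± 0.36, adjusted p = 0.00215). The co-receptor Lrp6 averaged 224 ± 81.7 CPM in RYGB and 426 ± 31.7 CPM in sham libraries (-1.0 ± 0.23, adjusted p = 0.00613). Fzd5 also fell (-1.20, adjusted p = 0.00153). These 5 calls held with any 1 library left out.

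**Figure D2:**
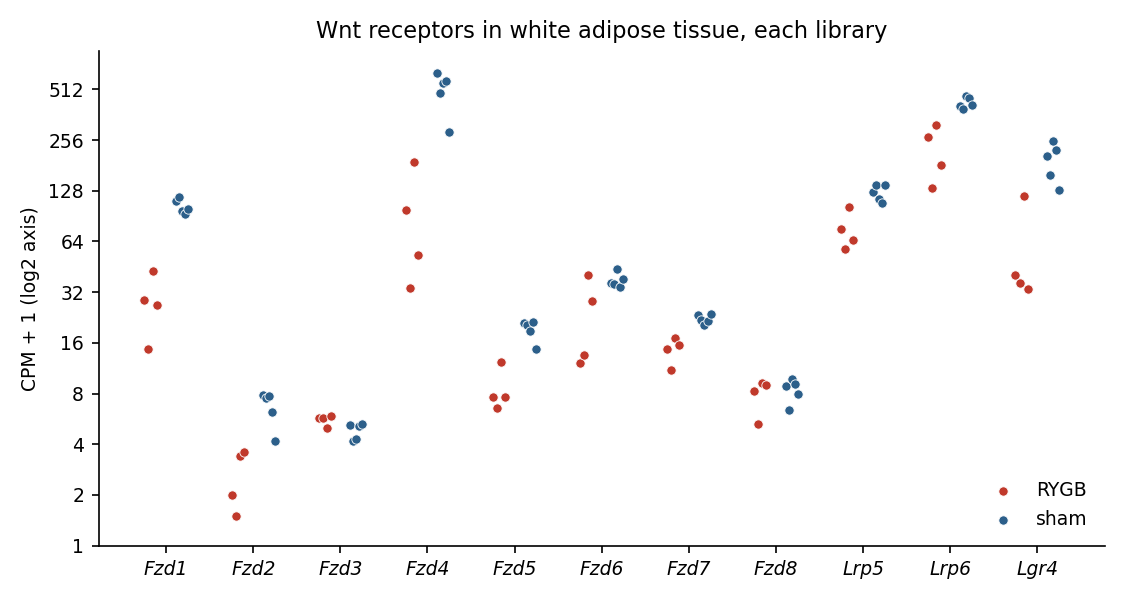
CPM plus 1 on a log2 axis for 8 frizzled receptors, Lrp5, Lrp6 and Lgr4 in WAT, with 1 point per library (4 RYGB left, 5 sham right of each pair). The groups are apart for Fzd1, Fzd2, Fzd4, Fzd5, Fzd7, Lrp5, Lrp6 and Lgr4, and overlap for Fzd3, Fzd6 and Fzd8.

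Few other ligands and secreted regulators were listed in WAT. Of 16 other Wnt ligands only Wnt8b and Wnt9a were listed, and both fell, where 26.3% of all WAT genes were lower and 14.3% higher. Wnt8b was listed through the sham libraries alone, as were Rspo1, Rspo3, Dkk3 and Cthrc1, which favours a lower value after RYGB. Wnt9a averaged 1.95 ± 0.580 CPM in RYGB and 5.06 ± 0.611 CPM in sham libraries (adjusted p = 0.00217), and Wnt8b 0.150 ± 0.129 CPM in RYGB and 1.44 ± 0.410 CPM in sham libraries (adjusted p = 0.00220). Of 5 listed antagonists and agonists, the R-spondins Rspo1 and Rspo3, which amplify Wnt signalling, fell (both -0.69, adjusted p = 0.0416 for Rspo1 and 0.0420 for Rspo3). The Rspo1 call was lost without any 1 of RYGB 1, 2 or 4 or sham 2, 3 or 4 (adjusted p up to 0.10) and under median-of-ratios scaling (0.0573), and that of Rspo3 without any 1 of RYGB 1 to 3 or sham 1 to 4 (up to 0.111). Dkk3 (-0.69, adjusted p = 0.0978) and Cthrc1 (-0.61, adjusted p = 0.0592) did not pass, but Dkk3 passed without RYGB 4 (0.0330) and Cthrc1 without RYGB 3 (0.0241) or RYGB 4 (0.0362). Without RYGB 3 and 4 together both passed (0.00201 for Dkk3 and 0.00178 for Cthrc1). RYGB 3 and 4 were the RYGB libraries highest in Dkk3 and Cthrc1, so leaving them out lowers these differences in itself. Porcn, the acyltransferase that lipidates Wnt proteins, fell (-0.65, adjusted p = 0.0226), a call lost without RYGB 1 (0.0598) or sham 3 (0.0602), without RYGB 3 and 4 together (0.0513) and under median-of-ratios scaling (0.0892). Wls, which carries Wnts to the cell surface, did not pass (-0.19, adjusted p = 0.384), but did without RYGB 3 (0.0480) or without RYGB 3 and 4 together (0.0387). RYGB 3 was the library highest in Wls, so leaving it out likewise lowers the Wls difference.

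Inside the cell, 12 of 26 listed genes of the beta-catenin cascade fell, 1 rose and 13 did not pass, with a median difference of -0.44, beside the same 26.3% of all WAT genes lower and 14.3% higher. Tcf7l2, a TCF factor through which beta-catenin acts on genes, averaged 65.5 ± 12.6 CPM in RYGB and 140 ± 7.82 CPM in sham libraries (-1.10 ± 0.14, adjusted p = 0.000358). The co-repressor Tle3 (-1.14, adjusted p = 0.00215), the co-activator Bcl9l (-0.93, adjusted p = 0.00214) and Tcf7l1 (-0.79, adjusted p = 0.00202) fell as well. The riser was the kinase Gsk3a (0.58, adjusted p = 0.0274), named after its value was seen. Beta-catenin itself, Ctnnb1, averaged 539 ± 112 CPM in RYGB and 724 ± 41.7 CPM in sham libraries (-0.45 ± 0.16, adjusted p = 0.0447). That call was lost without RYGB 1 or 2 or any 1 sham library (adjusted p up to 0.116), and under median-of-ratios scaling (0.128).

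Of 7 listed genes that beta-catenin is known to switch on, 3 fell, 1 rose and 3 did not pass, with a median difference of -0.79, beside 26.3% of all WAT genes lower and 14.3% higher. Nkd1, a feedback inhibitor, averaged 1.55 ± 0.252 CPM in RYGB and 11.2 ± 3.79 CPM in sham libraries (-2.18 ± 0.28, adjusted p = 0.000409). Apcdd1, a membrane Wnt inhibitor, averaged 43.9 ± 35.0 CPM in RYGB and 143 ± 34.3 CPM in sham libraries (-2.13 ± 0.57, adjusted p = 0.0136). Axin2, the classic feedback target, averaged 5.15 ± 4.12 CPM in RYGB and 12.9 ± 2.58 CPM in sham libraries (-1.35 ± 0.33, adjusted p = 0.00901), and its groups overlapped. Myc rose (0.55, adjusted p = 0.0450), a call lost without any 1 of RYGB 2 to 4 or sham 1, 2 or 4 (adjusted p up to 0.0882). The Myc call was also lost without RYGB 3 and 4 together (0.146). Ccnd1 did not pass (-0.79, adjusted p = 0.199), but did without RYGB 3 and 4 together (-1.73, adjusted p = 0.00348). RYGB 3 and 4 were the RYGB libraries highest in Ccnd1, so leaving them out lowers its difference in itself.

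In the planar polarity and calcium branches, 6 of 16 listed genes fell and 0 rose. The formin-like effectors Daam1 (-1.39, adjusted p = 0.00191) and Daam2 (-1.26, adjusted p = 0.00119) and the polarity gene Prickle2 (-1.10, adjusted p = 0.00412) fell. All 3 listed relatives of Wisp2 in the CCN family fell too: Ctgf averaged 10.9 ± 7.79 CPM in RYGB and 29.6 ± 6.60 CPM in sham libraries (adjusted p = 0.00456), Nov differed by -1.37 (adjusted p = 0.00189) and Cyr61 by -1.29 (adjusted p = 0.0120). Over all 8 pathway lists, 79 of 113 genes were listed in WAT, of which 41 (51.9%) fell, 2 rose and 36 did not pass, beside 26.3% of all WAT genes lower and 14.3% higher. Their median difference was -0.58 (all WAT genes -0.16). Of the 79, 7 reached the authors' filter through the sham libraries alone, which favours a lower value, and 1 through the RYGB libraries alone. With median-of-ratios scaling 32 fell and 4 rose, where 2593 of all 12690 WAT genes were lower and 2681 higher. Without RYGB 3 and 4, 60 of the pathway genes fell and 1 rose. No share of all WAT genes is given for that last setting.

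**Figure D3:**
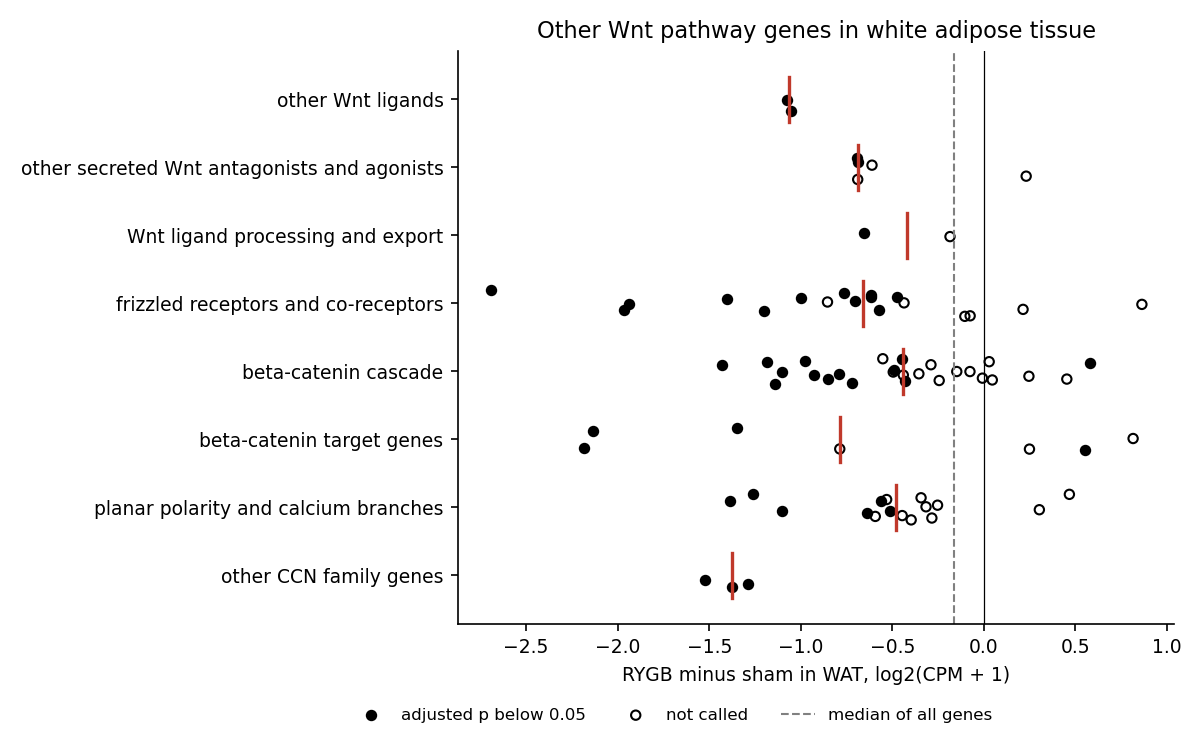
Difference between RYGB and sham WAT in log2(CPM + 1) for 79 listed Wnt pathway genes, by list, with filled points for an adjusted p below 0.05, red bars at list medians and a dashed line at the median of all genes (-0.16). In each of the 8 lists the median lies left of the dashed line.

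Outside WAT, each tissue gave its own comparison of RYGB with sham, though the genes were chosen with earlier results of these data known. The 9 genes gave 16 listed pairs of gene and tissue, and 2 of them passed, both for Wnt4 and both toward lower values after RYGB. Of the 16 pairs, 4 reached the authors' filter of 1 CPM in 4 libraries through the sham libraries alone: Wnt4 in duodenum and jejunum, Wnt5a in jejunum and Wisp2 in muscle. A gene listed in that way tends to come out lower after RYGB, so the direction of the Wnt4 calls is partly set by the filter and their count supports nothing. Tissues also share mice, since the 51 libraries came from 10 animals, 5 per operation. The tables were normalized separately, so levels are not tested across tissues.

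Wnt4, a ligand best known from kidney, ovary and muscle development, was lower in duodenum and in jejunum. The 2 segments share all 5 sham mice and 3 RYGB mice, so they are not independent of each other. In duodenum it measured 0.9, 1.1, 1.4 and 0.5 CPM in RYGB libraries, against 6.8, 5.7, 11.7, 4.7 and 4.5 CPM in sham libraries. The groups did not overlap, as for 1.69% of duodenal genes in that direction, and Wnt4 fell by 1.91 ± 0.28 on the log2 scale (adjusted p = 0.0230), where 0.220% of duodenal genes passed toward lower values. Median-of-ratios scaling moved the median duodenal gene by 0.16 and left 74.0% of calls lower, against 63.2% without it. Pancreatic enzyme transcripts made up 0.0152%, 1.41%, 0.0344% and 0.00215% of CPM in the RYGB libraries, and 6.07%, 8.77%, 5.95%, 0.0809% and 0.00593% in the sham libraries. The libraries below 1% alone held Wnt4 at 0.9, 1.4 and 0.5 CPM after RYGB, against 4.7 and 4.5 CPM after sham surgery. Over them, Wnt4 differed by -1.56 (adjusted p = 0.939). The call was also lost without any 1 of RYGB 1, 2 or 4 or sham 1 to 4 (adjusted p 0.0501 to 0.0954, differences -2.0 to -1.71).

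In jejunum Wnt4 measured 1.1, 0.2, 0.4 and 0.2 CPM in RYGB libraries, against 2.2, 1.7, 2.8, 2.1 and 1.8 CPM in sham libraries. Again every RYGB library was below every sham library, as for 6.75% of jejunal genes, and Wnt4 fell by 1.11 ± 0.23 (adjusted p = 0.0172), where 6.29% of jejunal genes passed toward lower values. This call held without any 1 library (adjusted p 0.0154 to 0.0464). Stromal markers without Dpp4, which villus epithelium also expresses, summed to 53.3 to 124.5 CPM in jejunum RYGB 1 to 3 and 10.8 CPM in RYGB 4, and to 7.5 to 70.2 CPM in sham libraries. In muscle, where Wnt4 had the highest mean per length of the 9 genes (4.79 ± 2.01 CPM per kb in RYGB and 4.32 ± 1.67 in sham libraries), within the spread of Sfrp5 in RYGB muscle (4.54 ± 1.64), it measured 19.3, 18.7, 11 and 31.4 CPM in RYGB libraries, against 14.7, 28.3, 12.7 and 16.8 CPM in sham libraries (0.12 ± 0.31, adjusted p = 0.971), and the groups overlapped.

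**Figure D4:**
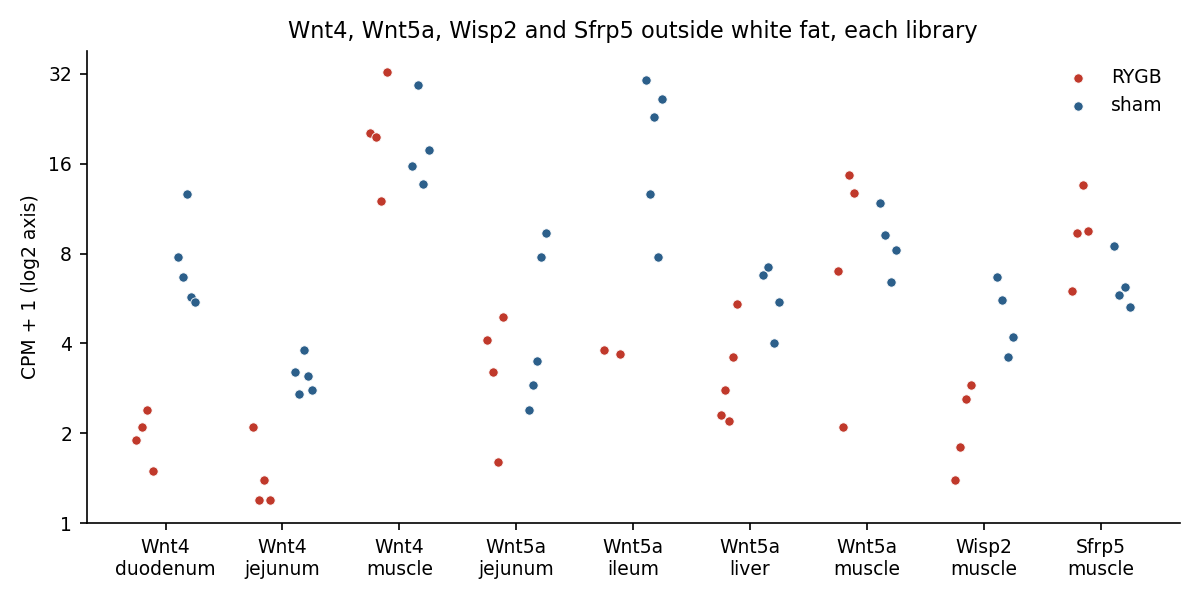
CPM plus 1 on a log2 axis for Wnt4, Wnt5a, Wisp2 and Sfrp5 in tissues other than WAT, with 1 point per library (RYGB left, sham right of each pair). The groups are apart for Wnt4 in duodenum and jejunum, Wnt5a in ileum and Wisp2 in muscle.

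Wnt5a was listed in 5 tissues, WAT included, and passed in none of the other 4. In ileum it measured 2.8 and 2.7 CPM in the RYGB libraries, against 29.6, 11.7, 21.9, 6.8 and 25.4 CPM in the sham libraries. The groups did not overlap, as for 4.94% of ileal genes in that direction, and the difference of -2.25 ± 0.59 did not pass (adjusted p = 1.00). With 2 RYGB libraries, limma called 0 of 12041 ileal genes, 438 had an unadjusted p below 0.05, and without sham 4 Wnt5a passed (adjusted p = 0.0409). Sham 4 was the sham library lowest in Wnt5a, so leaving it out widens the difference in itself. Its enterocyte markers summed to 13169.7 CPM, against 44572.8 to 49788.5 CPM in the other sham libraries. No share of all ileal genes is given for that setting. Smooth muscle markers in ileum summed to 3.0 and 0.1 CPM in the RYGB libraries and 0.4 to 33.7 CPM in the sham libraries. In liver Wnt5a measured 1.3, 1.8, 1.2, 2.6 and 4.4 CPM in RYGB libraries, against 5.8, 6.2, 3 and 4.5 CPM in sham libraries, with overlap through RYGB 5 and sham 3 (-0.90 ± 0.40, adjusted p = 0.136, where 2.60% of liver genes passed toward lower values). In jejunum (-0.49 ± 0.47, adjusted p = 0.518) and muscle (-0.26 ± 0.54, adjusted p = 0.959) the groups overlapped widely, and the muscle mean was 8.15 CPM in RYGB and 7.90 CPM in sham libraries.

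All 9 genes were listed in muscle, and none passed. There limma called 0 of 11594 genes, while 2 of the 9 (Wisp2 and Wnt11) and 812 of all muscle genes had an unadjusted p below 0.05. Wisp2 measured 0.4, 0.8, 1.6 and 1.9 CPM in RYGB libraries, against 5.7, 4.6, 2.6 and 3.2 CPM in sham libraries. Every RYGB library was below every sham library, as for 1.96% of muscle genes (adjusted p = 0.371). Wnt11 measured 3.5, 3.5, 2.1 and 6.1 CPM in RYGB libraries, against 7.7, 5.1, 6.7 and 7.5 CPM in sham libraries, with overlap through RYGB 4 (-0.74 ± 0.25, adjusted p = 0.595).

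Sfrp5, nearly lacking in RYGB fat, measured 5, 8.4, 12.6 and 8.5 CPM in RYGB muscle, against 7.5, 4.8, 5.2 and 4.3 CPM in sham muscle. The groups overlapped and the difference pointed up, without passing (0.54 ± 0.26, adjusted p = 0.717). Adipocyte markers in muscle summed to 2998.6 to 7067.8 CPM in RYGB libraries and 1827.4 to 6561.9 CPM in sham libraries. Sfrp2 measured 1.4, 0.7, 12.4 and 2.8 CPM in RYGB muscle, against 3.9, 1.4, 1 and 0.9 CPM in sham muscle (adjusted p = 0.889), and Sfrp4 1.6, 0.7, 2.8 and 1 CPM in RYGB muscle, against 4.1, 0.9, 1.4 and 1.3 CPM in sham muscle (adjusted p = 0.956). Sfrp1 averaged 4.88 ± 0.532 CPM in RYGB and 4.68 ± 0.781 CPM in sham muscle (adjusted p = 0.979). Wif1 measured 1.1, 2.1, 4.2 and 9.7 CPM in RYGB muscle, against 5, 6.2, 1 and 1.9 CPM in sham muscle (adjusted p = 0.985). The groups overlapped for each of these 4 genes.

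The remaining pairs lay near the authors' filter. Sfrp1 in liver measured 0.4, 0.8, 0.6, 1.3 and 0 CPM in RYGB libraries, against 1.5, 2.1, 0.2 and 1.2 CPM in sham libraries (-0.45 ± 0.37, adjusted p = 0.384). Wif1 in jejunum measured 0.8, 0.1, 1 and 0.4 CPM in RYGB libraries, against 0.4, 0.7, 1.1, 1.3 and 1.6 CPM in sham libraries (-0.36 ± 0.26, adjusted p = 0.381). Both pairs of groups overlapped. Median-of-ratios scaling moved the median liver gene by 0.18.

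Calls among the other Wnt pathway genes outside WAT were counted beside those of all genes of each tissue. With limma, 0 of 78 listed genes passed in muscle, 0 of 56 in duodenum, 0 of 63 in ileum and 0 of 65 in liver, where 0%, 0.348%, 0% and 4.63% of all genes passed in that order. In the same order, 11, 15, 1 and 16 of them had an unadjusted p below 0.05. Over all listed genes, 812 of 11594 in muscle had such a p, as did 22.7% in duodenum, 3.64% in ileum and 33.8% in liver. In jejunum 2 of 56 fell and 4 rose, beside 6.29% of all jejunal genes lower and 6.32% higher, which is near the background. Of the 56, 17 had an unadjusted p below 0.05, as did 30.5% of all jejunal genes. Whether the WAT differences are larger than those in the other tissues was not tested.

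**Figure D5:**
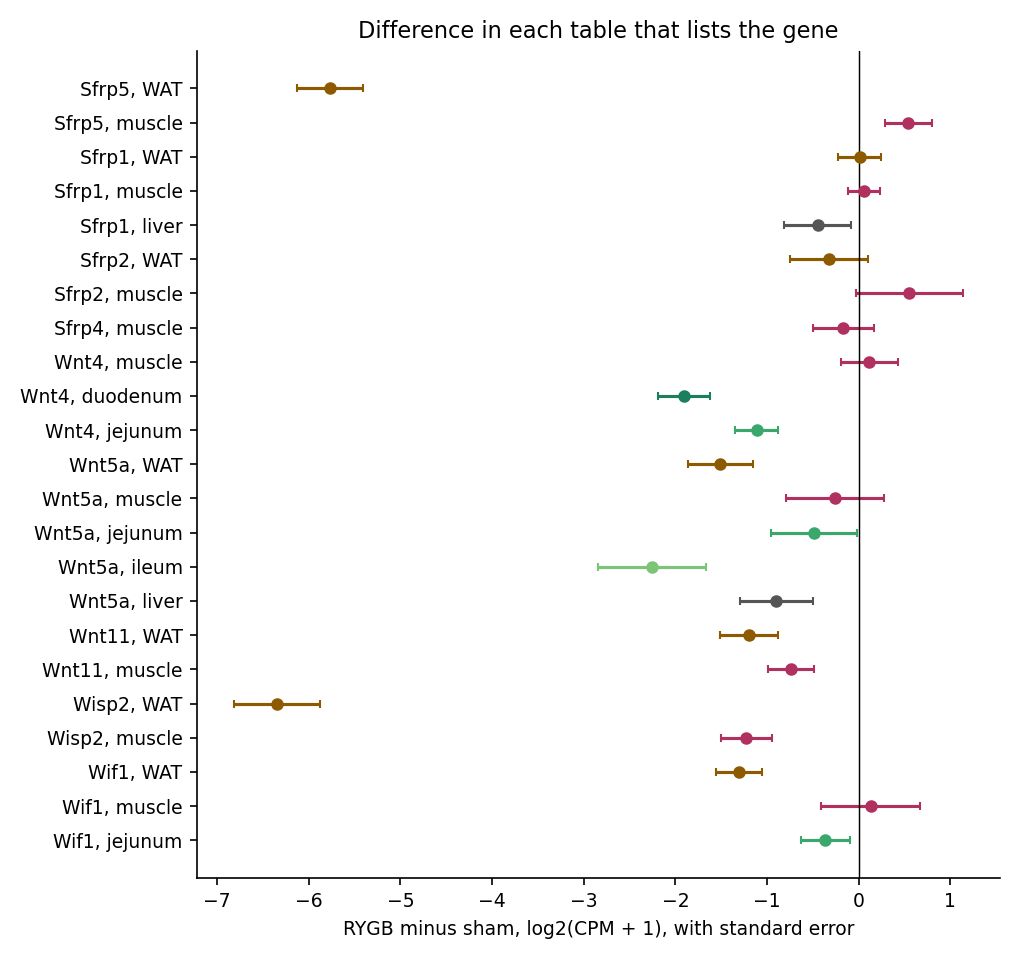
Difference between RYGB and sham libraries in log2(CPM + 1) for each of the 9 genes in every tissue that lists it, with bars of 1 SE. Sfrp5 (-5.77) and Wisp2 (-6.35) in WAT lie far to the left, and all other pairs lie between -2.25 (Wnt5a in ileum) and 0.55 (Sfrp2 in muscle).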

How the data were processed

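Values are gene-level CPM tables, 1 per tissue, deposited by the authors with 1 decimal. HTSeq (version not given) and the build GRCm38 come from the submitters' processing notes. No aligner, annotation release or strand setting is given in those sources, so reads of overlapping or antisense genes cannot be told apart. Every listed gene reaches 1 CPM in a number of libraries no lower than the size of its tissue's smaller group. Repeated lines (374 in WAT, 339 in ileum) were dropped. Read depth is unknown, so no counting interval is given. In liver RYGB 2 to 4 and sham 1 and 2, only 8 to 10 of 20 CPM steps up to 2 CPM occurred. The other libraries of the series held 19 or 20. Low liver values, such as those of Sfrp1 and Wnt5a, are therefore coarser in those libraries.

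Groups follow the title and surgery labels. Replicate numbers name different animals in each group. Per tissue, limma 3.58.1 in R 4.3.3 (trend and robust options) was fitted to log2(CPM + 1) with a surgery term alone, two-sided. P-values were adjusted by Benjamini-Hochberg over every gene listed for the tissue, with a threshold of 0.05. Differences on this scale understate changes of low genes. The p-values reflect how these animals varied. The fit was tested on simulated data. Coordinates and exon lengths are from GENCODE on GRCm38, promoters from RefSeq.

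The members and lists were chosen with earlier results of these data known. Named genes are the 9 members, per pathway list at most 4 by adjusted p and 2 by CPM, markers with the highest CPM, and the 5 genes most like Sfrp5. Alternatives were median-of-ratios scaling, a pseudocount of 0.1, a mean CPM of at least 5, limma library weights, the replicate number as a block and each library left out. Added after seeing the data were WAT without RYGB 3 and 4, and duodenum without libraries with over 1% pancreatic transcripts. Python 3.11.15, pandas 2.3.3 and matplotlib 3.10.9 prepared tables and figures. The result of 1 marker gene is not reported here.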

Additional observations from a re-analysis of the deposited data

Results flagged for a closer look

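Of 45 groups of member values with enough libraries to judge, 3 held a library that stood apart from the others by Dixon's criterion. Some such libraries can arise by chance among 45 groups. Their number was not computed, and the groups share libraries. Sfrp1 in WAT RYGB 3 was 4.9 CPM, against 1.8 to 2.3 CPM in the other RYGB libraries. Sfrp2 in muscle sham 1 was 3.9 CPM, against 0.9 to 1.4 CPM in the other sham libraries. Sfrp4 in the same muscle library, sham 1, was 4.1 CPM, against 0.9 to 1.4 CPM in the others.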

How the results depend on the processing

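The count of 5 genes of 7 in WAT stood under scaling, pseudocount, library weights, the replicate block and with each library left out. It was 3 of 3 with a mean CPM of at least 5, where fewer genes are listed, and 6 without RYGB 3 and 4. The 43 pathway calls in WAT ranged from 32 to 47 with a library left out, and were 33 under the block, 36 with scaling, 38 with weights or the CPM minimum and 61 without RYGB 3 and 4. Apart from scaling, no share of all WAT genes is given for these settings. The WAT counts therefore describe the listed genes alone and cannot be set against the tissue. The 2 calls in other tissues became 0 with a mean CPM of at least 5, 1 without the pancreas-rich libraries and 1 to 3 with a library left out. The direction turned for Sfrp1 in WAT with library weights (-0.035), the 0.1 pseudocount (-0.006), the block (-0.01) and without RYGB 3 and 4 (-0.25), for Sfrp1 (-0.039) and Wif1 (-0.29) in muscle with weights, and for Ms4a1 (-0.67) in WAT without RYGB 3 and 4. With a library left out, ranges that crossed 0 were -0.22 to 0.14 for Sfrp1 and -0.63 to 0.033 for Sfrp2 in WAT, and, in muscle, -0.052 to 0.94 for Sfrp2, -0.39 to 0.14 for Sfrp4, -0.12 to 0.36 for Wnt4, -0.60 to 0.34 for Wnt5a and -0.30 to 0.49 for Wif1. The cause was not tested. Same-numbered WAT libraries of the 2 groups deviated with r from -0.097 to 0.13 and came from different animals, so the numbers do not pair them. With the number as a replicate block Wnt4 in jejunum had an adjusted p of 0.0657. In ileum only numbers 1 and 2 occur in both groups, so the blocked Wnt5a difference of -2.39 rests on those libraries. Its p is not given. With library weights, Wnt5a in liver passed (0.0179). Values near 1 CPM rest on few reads.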
